A study of Mus musculus with 54 samples.

Results

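Cytochrome P450 enzymes (P450s) are heme proteins that insert an atom of oxygen into their substrates, drawing electrons from a reductase partner. Those of the Cyp1 to Cyp3 groups mostly clear drugs and other foreign compounds, those of the Cyp4 group oxidise fatty acids, and others build or break down bile acids, steroid hormones and vitamin D. Adult liver and gut epithelium are their best known sites, while a few act in steroid-producing, stromal or embryonic tissue. The family was taken here as all genes with a symbol of the form Cyp, number, letter, number and a probe set annotated to that gene alone, leaving out Cyp26a1 and Cyp26b1, and the probe set with the highest mean over all arrays stood for each gene. This gave 43 genes of the 14104 read by the arrays. By role they comprised 3 Cyp1 genes, 8 of the Cyp2c, 3 of the Cyp2d and 4 of the Cyp2j subfamily, 5 other Cyp2 genes, 5 of Cyp3a and 6 of Cyp4. A further 4 genes act on bile acids and oxysterols, 2 on steroid hormones and 2 on vitamin D, and 1 (Cyp20a1) has no settled substrate.

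The cells were CGR8, a male murine embryonic stem cell (ESC) line of strain 129, in 3 forms: unmodified (WT), with a scrambled short hairpin RNA (SCR), and with a short hairpin RNA against Mageb16 (KD). Each was examined as ESCs (day 0) and as embryoid bodies (EBs), aggregates grown by the hanging drop method, at 2, 4, 12, 15 and 22 days. That makes 18 groups of 3 arrays, 54 arrays in all (Affymetrix Mouse 430 2.0), and the SCR and KD lines were each a single stable population selected with puromycin. Whether the 3 arrays of a group stand for separate cultures is not given, so the p-values measure the spread between arrays, which may be technical. That spread was estimated once per probe set over all 18 groups, so errors are too small where a group scatters more. An example is Cyp2c29, with a standard deviation of 0.982 log2 in 22-day KD and 0.200 in 22-day SCR EBs. Values are log2 signals. A gene was called higher or lower at an adjusted p under 0.05 (limma, Benjamini-Hochberg over all probe sets) with at least a 2-fold difference, that is 1 on the log2 scale. The signal of the targeted gene Mageb16 was lower in KD than in SCR and WT cells on every day, by -3.01 log2 against SCR in ESCs and by -3.75 (SE 0.0969, adjusted p = 1.56e-30) over days 12 to 22. In 17 of 18 groups replicate 3 lay between the other arrays for more probe sets than either of them did, and if it is not independent of them the errors and p-values given are too small.

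Much of the family was dim in these cells. The lower quartile of all probe sets on an array lay between 4.23 and 4.51, and the brightness of different probe sets is not comparable beyond that. Of the 43 P450s, 12 had no group mean above the lower quartile of their arrays, 7 were above it in all 18 groups and 24 in some of them. In ESCs 10 members were above it in each line. In 22-day EBs the numbers were 26 in KD, 11 in SCR and 15 in WT. The signal was highest in 22-day KD EBs for 21 members. Where a signal lay below the lower quartile, the size of a difference from it is not exact, and in whole EBs fewer cells of a type and less RNA per cell cannot be told apart.

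**Figure D1:**
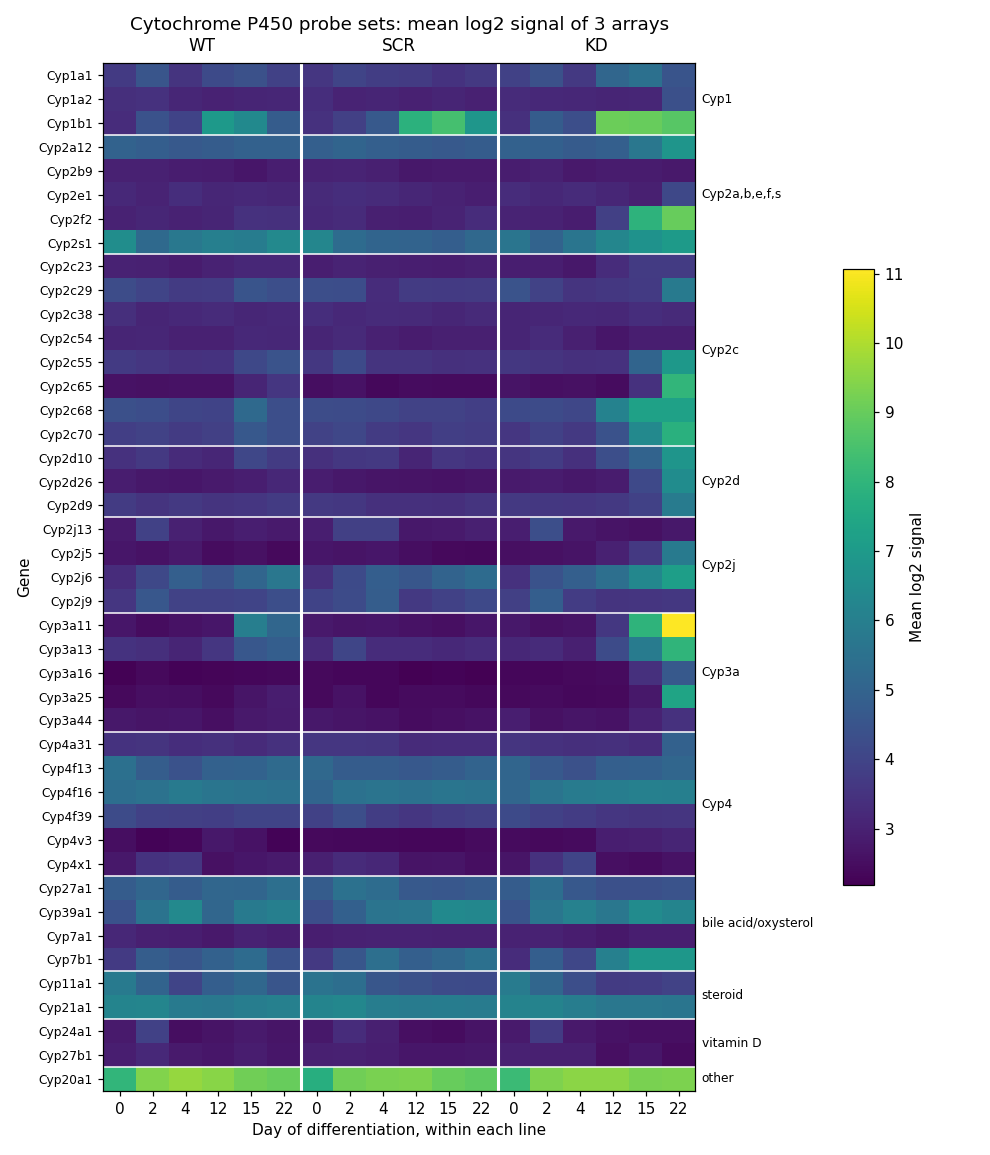
Mean log2 signal of the 43 P450 genes (rows, ordered by class) in the 18 groups of line and day (columns, 3 arrays each); colours are to be compared along a row, since different probe sets are not on 1 scale. The 22-day KD column is the brightest in 21 rows.

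KD and SCR cells were compared on each day, which asks how P450 expression differed when Mageb16 was knocked down. In ESCs limma called 0 members higher and 0 lower in KD, with 2 higher and 3 lower at an unadjusted p under 0.05; of all 14104 genes 0.702% were called higher and 0.503% lower. In 2-day EBs the calls were again 0 and 0, with 6 and 3 at an unadjusted p under 0.05, against 2.34% and 2.4% of all genes. In 4-day EBs 0 members were called higher by limma (5 at an unadjusted p under 0.05) and 3 lower, where 5.67% of all genes were called higher and 6.15% lower. The 3, which are 6.98% of the members, were Cyp7b1, Cyp2j9 and Cyp2j13, the only ones called between KD and SCR at this day. That share is near the share of all genes called lower. Between KD and WT EBs of day 4 limma called none of these 3.

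From day 12 on all calls of members between KD and SCR were higher in KD. In 12-day EBs 6 members were higher in KD and 0 lower, beside 8.66% and 5.46% of all genes. In 15-day EBs 16 were higher and 0 lower, beside 10.3% and 6.16%. In 22-day EBs 22 of the 43 were higher and 0 lower, beside 11.9% and 4.61%. For the lower direction the counts at an unadjusted p under 0.05 were 3, 2 and 5. The median KD to SCR difference of the 43 members was 0.15 log2 at day 12, 0.42 at day 15 and 1.18 at day 22, when that of all genes was -0.05. Taken as the mean of the 3 late days, 19 members were higher and 0 lower (10.1% and 4.88% of all genes; 8 members lower at an unadjusted p under 0.05), with a median of 0.61 log2 against -0.02 for all genes.

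The late calls differed in the day at which they first appeared. Cyp2c68, Cyp2d10, Cyp2s1 and Cyp7b1 were higher in KD EBs at each of days 12, 15 and 22. At day 12, KD replicate 2 lay near the SCR arrays for Cyp2c68 and Cyp2d10. A larger set of 11 members was called at days 15 and 22 but not at day 12, among them Cyp3a11, Cyp3a13, Cyp2c65, Cyp2c70 and Cyp2f2. A missing call is not an absent difference. Day 12 means in KD and SCR EBs were 3.62 and 2.63 for Cyp3a11, 4.21 and 3.31 for Cyp3a13. They were 4.42 and 3.58 for Cyp2c70, 3.85 and 2.94 for Cyp2f2, and 2.47 and 2.49 for Cyp2c65. At day 22 alone the calls were Cyp1a2, Cyp2c29, Cyp2d9, Cyp2e1, Cyp3a25 and Cyp4a31. Cyp1a1 was called at days 12 and 15 but not at day 22, and Cyp1b1 at days 12 and 22 but not at day 15. Of the 22-day KD arrays replicate 3 was the lowest for 17 of the 22 members called, and without it 23 members were called. The share of all probe sets for which it was lowest was not counted. In this group replicate 3 lay between the other arrays for 28.3% of all probe sets, and replicate 1 for 37.1%.

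**Figure D2:**
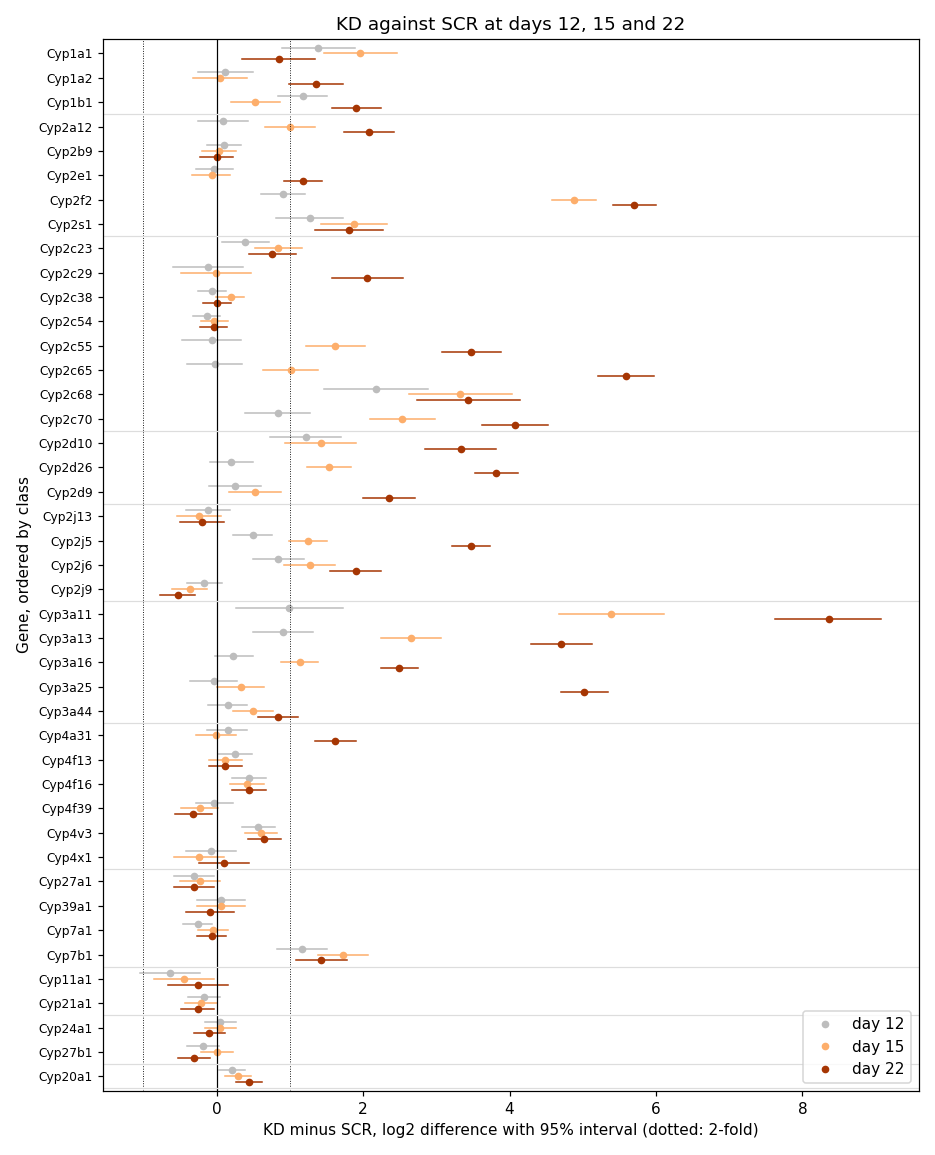
KD minus SCR difference (log2) of each of the 43 P450 genes at days 12, 15 and 22, with 95% intervals from limma; lines mark a 2-fold difference. At day 22, 22 genes lie above the upper line with an adjusted p under 0.05 and none below the lower one.

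The upstream sequences of 7 members are shown. These are the 5 that hold the letters CAAAGTCCA, with Cyp3a44, which is nearly the same in sequence as Cyp3a16, and Cyp3a25, a Cyp3a gene without the letters. They are the 150 bases before the annotated start in RefSeq (GRCm38.p6), 5′ to 3′ on the gene's strand. Capitals mark CAAAGTCCA, a form of the site bound by the liver and gut factor HNF4A, and TATAAA, the letters of a TATA box, on either strand and at any distance from the start.
Cyp3a11: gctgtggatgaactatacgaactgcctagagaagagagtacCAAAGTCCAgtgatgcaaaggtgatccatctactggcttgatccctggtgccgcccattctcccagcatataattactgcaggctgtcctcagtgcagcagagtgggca
Cyp3a16: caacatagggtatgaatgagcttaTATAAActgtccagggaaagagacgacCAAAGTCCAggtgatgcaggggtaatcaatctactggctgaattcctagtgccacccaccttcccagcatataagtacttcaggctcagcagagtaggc
Cyp3a44: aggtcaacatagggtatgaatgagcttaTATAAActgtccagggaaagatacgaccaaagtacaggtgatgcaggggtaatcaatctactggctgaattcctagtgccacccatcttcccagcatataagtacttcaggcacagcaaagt
Cyp3a25: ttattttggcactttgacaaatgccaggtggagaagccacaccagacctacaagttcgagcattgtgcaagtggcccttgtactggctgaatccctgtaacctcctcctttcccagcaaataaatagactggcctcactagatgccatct
Cyp2c65: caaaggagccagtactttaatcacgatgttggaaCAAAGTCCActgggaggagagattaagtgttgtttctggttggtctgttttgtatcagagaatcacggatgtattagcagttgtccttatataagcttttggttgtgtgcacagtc
Cyp2c68: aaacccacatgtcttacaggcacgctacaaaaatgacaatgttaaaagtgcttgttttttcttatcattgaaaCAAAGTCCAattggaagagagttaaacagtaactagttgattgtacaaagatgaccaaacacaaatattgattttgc
Cyp2c70: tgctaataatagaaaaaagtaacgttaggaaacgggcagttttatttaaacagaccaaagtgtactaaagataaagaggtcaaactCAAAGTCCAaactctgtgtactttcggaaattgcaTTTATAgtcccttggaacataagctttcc
These lie at chr5:145879855-145880004 (Cyp3a11), chr5:145469724-145469873 (Cyp3a16), chr5:145805875-145806024 (Cyp3a44) and chr5:146009619-146009768 (Cyp3a25), all on the minus strand. The Cyp2c windows are chr19:39060856-39061005 (Cyp2c65, plus strand), chr19:39741102-39741251 (Cyp2c68, minus) and chr19:40187287-40187436 (Cyp2c70, minus).

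A promoter was listed for 34 of the 43 members. Within the 250 bases before the start, CAAAGTCCA was present in 5 of the 34 (14.7%), on the gene's strand in each, and in 103 of 27025 promoters of all genes (0.381%). The 5 were Cyp3a11, Cyp3a16, Cyp2c65, Cyp2c68 and Cyp2c70. Cyp3a13, Cyp2c29, Cyp2c38 and Cyp2c55 had a promoter in the table without these letters and are not printed. TATAAA was present in 16 of the 34 (47.1%) and in 13% of all promoters. GTTAAT, the core of an HNF1 site, was found in 2 (Cyp2c68 and Cyp2d26; 6.52% of all), and TNGCGTG, the core bound by the aryl hydrocarbon receptor, in 1 (Cyp2c68; 4.16% of all) and in neither Cyp1a1 nor Cyp1b1 within this window. The Cyp3a16 and Cyp3a44 windows were 91.6% identical, and at the place of CAAAGTCCA in Cyp3a16 the Cyp3a44 window differed by C7A, counted from 1 at the 5′ end of the 9 letters. Cyp3a11 and Cyp3a16 were 70.8% identical. A match describes the letters and does not show that a factor bound there, and its relation to the expression differences was not tested.

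The 5 Cyp3a genes encode the main drug-oxidising P450s of liver and gut, and 4 of them were higher in 22-day KD EBs. Cyp3a11, the leading form in adult mouse liver, had log2 signals of 4.47, 2.61 and 3.79 in 12-day, 7.96, 8.10 and 7.80 in 15-day, and 11.07, 11.62 and 10.53 in 22-day KD EBs. In SCR EBs it was 2.62, 2.68 and 2.59 at day 12, 2.63, 2.58 and 2.48 at day 15, and 2.61, 2.85 and 2.69 at day 22. At days 15 and 22 every KD array was far above every SCR array, while at day 12 replicate 2 of KD lay within the SCR range. The difference at day 22 was 8.36 log2 (SE 0.358, 328-fold, adjusted p = 9.57e-23), after 5.39 at day 15, and it rested on a SCR signal below the lower quartile. In WT EBs Cyp3a11 was 2.81, 2.62 and 2.70 at day 12, 5.35, 6.43 and 6.12 at day 15, and 3.41, 6.17 and 5.71 at day 22. WT EBs thus lay between the other lines at days 15 and 22, with replicate 1 low at day 22.

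Cyp3a13, expressed in gut as well as liver, was 4.89, 3.38 and 4.37 in 12-day, 5.93, 5.77 and 5.94 in 15-day and 7.95, 8.45 and 7.62 in 22-day KD EBs, against 3.39, 3.16 and 3.35 in 22-day SCR and 4.38, 5.14 and 4.97 in 22-day WT EBs. The KD arrays did not overlap those of either other line at day 22, and the difference from SCR was 4.71 log2 (SE 0.204, 26.1-fold, adjusted p = 1.51e-22). Cyp3a25 was a late arrival. It stood at 2.64, 2.91 and 2.73 in 15-day and at 7.42, 8.06 and 6.64 in 22-day KD EBs, against 2.35, 2.31 and 2.41 in 22-day SCR EBs and 2.61, 3.02 and 3.05 in WT EBs. The day 22 difference was 5.02 log2 (SE 0.158, adjusted p = 3.64e-27). Cyp3a16, known as a form of the fetal and newborn liver, reached 4.42, 5.16 and 4.45 in 22-day KD EBs against 2.16, 2.13 and 2.26 in SCR (2.49 log2, SE 0.128, adjusted p = 3.69e-20). Cyp3a44 stayed below the lower quartile at 3.51, 3.57 and 3.26 in KD and 2.79, 2.57 and 2.46 in SCR EBs. Its difference of 0.84 log2 (95% interval 0.57 to 1.11) missed the 2-fold minimum.

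Of the 8 Cyp2c genes, which oxidise drugs, fatty acids and in rodents bile acids, 5 were higher in 22-day KD EBs, with a median difference of 2.75 log2 over the 8. Cyp2c65, a form of the lower gut, was 3.66, 3.39 and 3.33 in 15-day and 7.80, 8.79 and 7.49 in 22-day KD EBs, against 2.35, 2.50 and 2.46 in 22-day SCR EBs and 2.88, 3.96 and 3.87 in WT EBs. The KD arrays of day 22 stood clear of all others, with a KD to SCR difference of 5.59 log2 (SE 0.187, 48.2-fold, adjusted p = 2.40e-26). Cyp2c70, which makes the muricholic acids of mouse bile, was 4.97, 3.37 and 4.92 in 12-day, 6.55, 6.35 and 6.17 in 15-day and 7.90, 8.0 and 7.63 in 22-day KD EBs. It was 3.67, 3.84 and 3.79 in 22-day SCR and 3.85, 4.58 and 4.49 in 22-day WT EBs, and the difference from SCR was 4.08 log2 (SE 0.220, adjusted p = 2.05e-19). Cyp2c55, another gut form, was 6.96, 7.44 and 6.39 in KD, 3.59, 3.44 and 3.33 in SCR and 4.13, 4.91 and 4.35 in WT EBs at day 22 (KD to SCR 3.48 log2, SE 0.198, adjusted p = 1.29e-18).

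Cyp2c68 had a different course from the other Cyp2c genes. In KD EBs it was 7.44, 4.28 and 6.63 at day 12, 7.29, 7.26 and 7.26 at day 15 and 7.23, 7.36 and 7.20 at day 22. In SCR EBs it was 3.98, 3.73 and 4.10 at day 12 and 4.05, 3.69 and 3.74 at day 22. It was thus near its later level by day 12 in KD replicates 1 and 3, and its differences from SCR were 2.18, 3.33 and 3.44 log2 at days 12, 15 and 22 (adjusted p = 1.27e-06 at day 12 and 3.98e-11 at day 22). Replicate 2 of 12-day KD EBs, at 4.28, lay near the highest SCR array (4.10). The standard deviation in that group was 1.64 log2, so the error shared by all groups is too small for the day 12 difference. Cyp2c29, a liver form, was called at day 22 with an uneven signal of 5.87, 6.74 and 4.78 in KD against 3.89, 3.51 and 3.81 in SCR EBs (2.06 log2, SE 0.237, adjusted p = 9.40e-10). Of the remaining Cyp2c genes, Cyp2c23, which makes epoxides from arachidonic acid in kidney, differed by 0.76 log2 at day 22, under the 2-fold minimum. Over days 12 to 22 Cyp2c38 and Cyp2c54 differed by 0.05 and -0.07 log2.

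All 3 Cyp2d genes, liver enzymes with many drug substrates, were higher in 22-day KD EBs, by a median of 3.34 log2. Cyp2d10 was 5.12, 3.25 and 4.62 in 12-day, 5.16, 4.81 and 5.06 in 15-day and 6.72, 7.34 and 6.37 in 22-day KD EBs, against 3.48, 3.39 and 3.55 in 22-day SCR and 3.48, 3.89 and 3.76 in 22-day WT EBs. Its differences from SCR were 1.22 log2 at day 12 (adjusted p = 4.02e-05) and 3.34 at day 22 (SE 0.240, adjusted p = 2.00e-15). At day 12 KD replicate 2 of Cyp2d10 (3.25) lay near the highest SCR array (3.20). The KD standard deviation was 0.968 log2, so the shared error is too small there. Cyp2d26 went from 3.90, 4.41 and 4.14 at day 15 to 6.51, 6.72 and 6.32 at day 22 in KD EBs, where SCR EBs had 2.70, 2.71 and 2.68 (3.82 log2, SE 0.144, adjusted p = 1.41e-24). Cyp2d9, a testosterone hydroxylase of male mouse liver, was 6.0, 6.51 and 5.15 in KD and 3.61, 3.49 and 3.49 in SCR EBs at day 22 (2.36 log2, SE 0.177, adjusted p = 7.84e-15). None of the KD arrays of day 22 overlapped those of SCR or WT EBs for these 3 genes. Probe sets for close relatives such as the Cyp2c, Cyp2d and Cyp3a genes can read RNA of more than 1 gene, which was not tested.

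**Figure D3:**
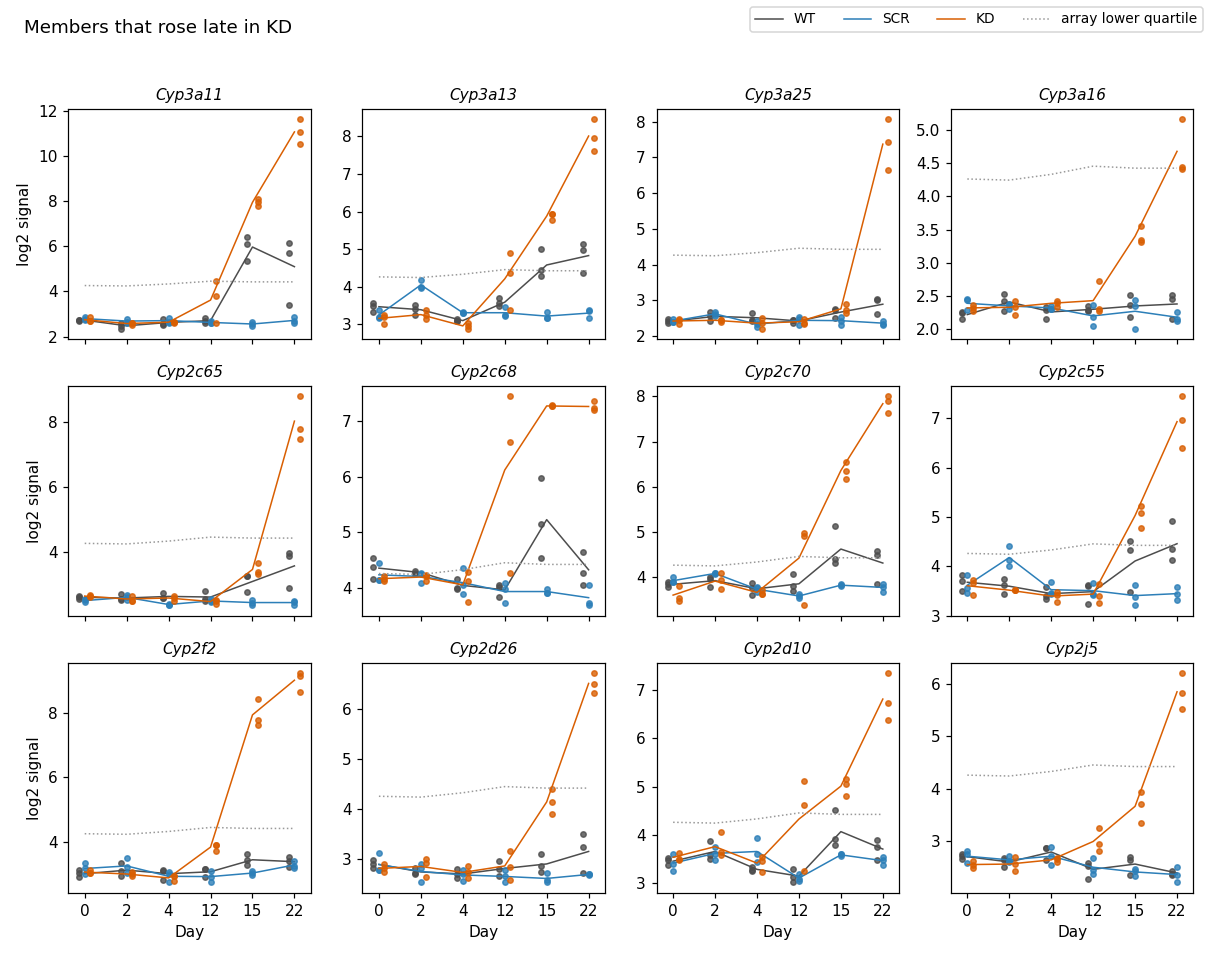
Log2 signal of 12 P450 genes on each array by day (points, days evenly spaced) with group means (lines) in WT, SCR and KD cells; the dotted line is the lower quartile of the arrays. From day 12 to day 22 KD EBs rise for all 12, Cyp2c68 having most of its rise by day 15, SCR EBs stay near the dotted line or below it, and for Cyp3a11 the WT arrays of days 15 and 22 lie between them.

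Among the other Cyp2 genes, Cyp2f2, which oxidises naphthalene and marks club cells of the airway besides being made in liver, was 3.93, 3.72 and 3.91 in 12-day, 8.43, 7.61 and 7.76 in 15-day and 9.14, 9.21 and 8.65 in 22-day KD EBs. In 22-day SCR EBs it was 3.27, 3.21 and 3.41 and in WT EBs 3.23, 3.41 and 3.56, so that the KD line stood alone. The KD to SCR difference was 4.88 log2 (SE 0.147) at day 15 and 5.70 (SE 0.147, 52.1-fold, adjusted p = 6.16e-30) at day 22. Cyp2a12, a liver hydroxylase of steroids and bile acids, was 6.74, 7.51 and 6.24 in KD, 4.84, 4.85 and 4.57 in SCR and 4.67, 5.17 and 4.98 in WT EBs at day 22 (KD to SCR 2.08 log2, SE 0.168, adjusted p = 6.61e-14). Cyp2e1, which oxidises ethanol, was called at day 22 with 4.01, 4.15 and 4.18 in KD against 2.82, 3.05 and 2.93 in SCR EBs (1.18 log2, SE 0.128, adjusted p = 2.11e-10), all below the lower quartile. Cyp2b9, a form of female liver, differed by 0.04 log2 over days 12 to 22.

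Cyp2s1, a P450 of epithelia, was among the members with a clear signal in ESCs. It was 5.76, 7.01 and 6.81 in WT, 5.50, 6.75 and 6.49 in SCR and 5.20, 5.97 and 5.77 in KD ESCs, with replicate 1 lowest in each line. In 22-day EBs it was 6.27, 6.42 and 6.42 in WT, 5.54, 5.01 and 5.05 in SCR and 7.12, 7.21 and 6.70 in KD. KD EBs exceeded SCR EBs by 1.27 log2 at day 12 and by 1.81 (SE 0.226, adjusted p = 6.80e-09) at day 22, and SCR EBs were below WT EBs by -1.08 log2 (SE 0.131, adjusted p = 3.30e-09) over days 12 to 22. Against WT the KD line was higher by 0.57 log2 (adjusted p = 0.000156), under the 2-fold minimum, so more of the KD to SCR distance lay between SCR and WT.

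The Cyp2j genes make epoxides from arachidonic acid. Cyp2j5, the kidney and liver form, was 3.36, 3.94 and 3.71 in 15-day and 5.82, 6.20 and 5.53 in 22-day KD EBs, against 2.37, 2.22 and 2.52 in 22-day SCR EBs and 2.44, 2.37 and 2.38 in WT EBs (KD to SCR at day 22 3.48 log2, SE 0.129, adjusted p = 7.93e-25). Cyp2j6, a form present in many tissues, increased with differentiation in every line, from between 3.05 and 3.89 in ESCs to 5.51, 5.87 and 5.77 in WT, 5.13, 5.32 and 5.41 in SCR and 7.15, 7.23 and 7.17 in KD EBs at day 22. The KD to SCR difference of Cyp2j6 at day 22 was 1.90 log2 (SE 0.171, adjusted p = 1.52e-12). Cyp2j9 and Cyp2j13 belonged to the 3 members that were lower in 4-day KD EBs. Cyp2j9, a brain form, was 3.86, 3.66 and 3.76 in KD and 4.79, 4.75 and 4.82 in SCR EBs, with WT at 3.69, 4.03 and 4.08 (KD to SCR -1.03 log2, SE 0.119, adjusted p = 1.54e-09). Cyp2j13 was 2.56, 2.93 and 2.88 in KD and 3.57, 3.62 and 4.39 in SCR EBs, with WT at 2.93, 3.00 and 3.06 (KD to SCR -1.07 log2, SE 0.148, adjusted p = 9.30e-08). The Cyp2j13 mean of each line lay below the lower quartile at day 4. Both differences lay close to the 2-fold minimum, and the calls ended without 1 array, at -0.80 log2 for Cyp2j13 without replicate 3 of 4-day SCR EBs and at -0.98 for Cyp2j9 without replicate 2 of 4-day KD EBs.

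The Cyp1 genes are the classical targets of the aryl hydrocarbon receptor. Cyp1b1, which also oxidises estrogens and is made in stromal cells, was between 3.06 and 3.71 in all ESC arrays. In 12-day EBs it was 7.17, 6.77 and 7.02 in WT, 7.87, 8.01 and 7.83 in SCR and 9.10, 9.11 and 9.03 in KD. In 15-day EBs it was 6.16, 6.47 and 6.53 in WT, 8.75, 8.13 and 8.50 in SCR and 9.11, 8.92 and 8.93 in KD. In 22-day EBs it was 5.05, 4.51 and 4.72 in WT, 6.72, 6.93 and 6.92 in SCR and 8.93, 8.73 and 8.64 in KD. The order WT, SCR, KD held without overlap at days 12, 15 and 22, and from day 12 to day 22 Cyp1b1 fell in WT and in SCR EBs. Over days 12 to 22 KD exceeded SCR by 1.20 log2 (SE 0.0951, adjusted p = 1.15e-14), and SCR exceeded WT by 1.70 (SE 0.0951, adjusted p = 1.16e-18), so that the control hairpin line was not at the WT level. A second Cyp1b1 probe set had a KD to SCR difference of 1.34 log2.

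Cyp1a1, the most inducible member, was 5.08, 4.57 and 5.67 in 12-day, 5.15, 5.78 and 5.42 in 15-day and 4.47, 5.40 and 3.60 in 22-day KD EBs. In SCR EBs it was 3.81, 3.71 and 3.63, then 3.34, 3.63 and 3.49, then 3.51, 3.80 and 3.60. KD and SCR arrays were apart at days 12 and 15 and overlapped at day 22, where the difference was 0.85 log2 (95% interval 0.35 to 1.35) after 1.96 (SE 0.248, adjusted p = 8.40e-09) at day 15. Cyp1a2, its liver neighbour, was 4.53, 4.99 and 3.52 in KD and 3.05, 2.91 and 3.00 in SCR EBs at day 22 (1.36 log2, SE 0.184, adjusted p = 3.88e-08), with the KD mean below the lower quartile, and without replicate 2 of every group the difference was 1.00 and missed the threshold.

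Among the bile acid and oxysterol enzymes only Cyp7b1, an oxysterol hydroxylase of the alternative bile acid route, was called between KD and SCR, and it crossed over. In 4-day EBs it was 4.18, 3.90 and 4.09 in KD, 5.12, 5.55 and 5.65 in SCR and 4.75, 4.25 and 4.55 in WT (KD to SCR -1.38 log2, SE 0.169, adjusted p = 5.74e-09). In 15-day EBs it was 6.91, 6.87 and 6.89 in KD against 5.24, 5.21 and 5.03 in SCR, and in 22-day EBs 7.05, 6.35 and 7.27 in KD, 5.19, 5.75 and 5.43 in SCR and 4.25, 4.25 and 4.78 in WT. KD was thus below SCR without overlap at day 4 and above it at days 15 and 22, with a day 22 difference of 1.43 log2 (SE 0.169, adjusted p = 1.76e-09). A second Cyp7b1 probe set gave -1.52 log2 at day 4 and 1.76 at day 22. Cyp7a1, the rate-limiting enzyme of the classical bile acid route, differed by -0.13 log2 over days 12 to 22 (95% interval -0.25 to -0.01) and Cyp27a1, the sterol hydroxylase that starts the alternative route, by -0.28. Cyp39a1, another oxysterol hydroxylase, increased from day 0 to day 22 by 1.58 log2 in WT, 1.95 in SCR and 1.69 in KD and differed by 0.01 between KD and SCR over days 12 to 22 (95% interval -0.18 to 0.20).

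Of the 10 enzymes of steroid hormones, vitamin D and fatty acids, 1 was called higher in KD than SCR EBs at day 22, the fatty acid hydroxylase Cyp4a31. Cyp11a1, which cuts the side chain of cholesterol as the opening step of steroid synthesis, was 5.41, 6.44 and 5.67 in WT, 5.70, 5.63 and 5.36 in SCR and 5.43, 6.34 and 5.86 in KD ESCs. By day 22 it had fallen to 4.89, 4.34 and 4.38 in WT, 4.53, 3.92 and 4.11 in SCR and 3.71, 4.01 and 4.07 in KD EBs, by -1.30, -1.38 and -1.95 log2. It was the only member lower in KD than in WT EBs over days 12 to 22, by -1.02 log2 (SE 0.115, adjusted p = 1.74e-10), a call that ended in several fits without 1 array, at -0.96 without replicate 1 of 22-day WT EBs. Cyp21a1, the steroid hydroxylase of the adrenal cortex, was even in ESCs at 6.22, 6.15 and 6.21 in WT, 6.15, 6.05 and 6.36 in SCR and 6.19, 6.18 and 6.11 in KD, and differed by -0.21 log2 between KD and SCR in the late EBs. Cyp24a1, which breaks down active vitamin D, and Cyp27b1, which makes it, differed by 0.00 and -0.17 log2. Of the 6 Cyp4 genes, Cyp4a31 was called at day 22, with 4.78, 4.80 and 5.22 in KD against 3.34, 3.26 and 3.33 in SCR (1.62 log2, SE 0.136, adjusted p = 2.15e-13). The other Cyp4 genes differed over days 12 to 22 by values from -0.19 log2 (Cyp4f39) to 0.61 (Cyp4v3), with Cyp4x1 at -0.07, Cyp4f13 at 0.16 and Cyp4f16 at 0.43. Cyp20a1 was 7.93, 8.09 and 8.04 in WT, 7.49, 7.98 and 7.81 in SCR and 8.13, 8.32 and 8.26 in KD ESCs and lay between 8.83 and 9.38 in all 22-day arrays, with a late KD to SCR difference of 0.31 log2. Other Cyp20a1 probe sets, of lower mean signal, gave late differences of -0.12 (limma adjusted p = 0.311) and 0.26 log2.

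**Figure D4:**
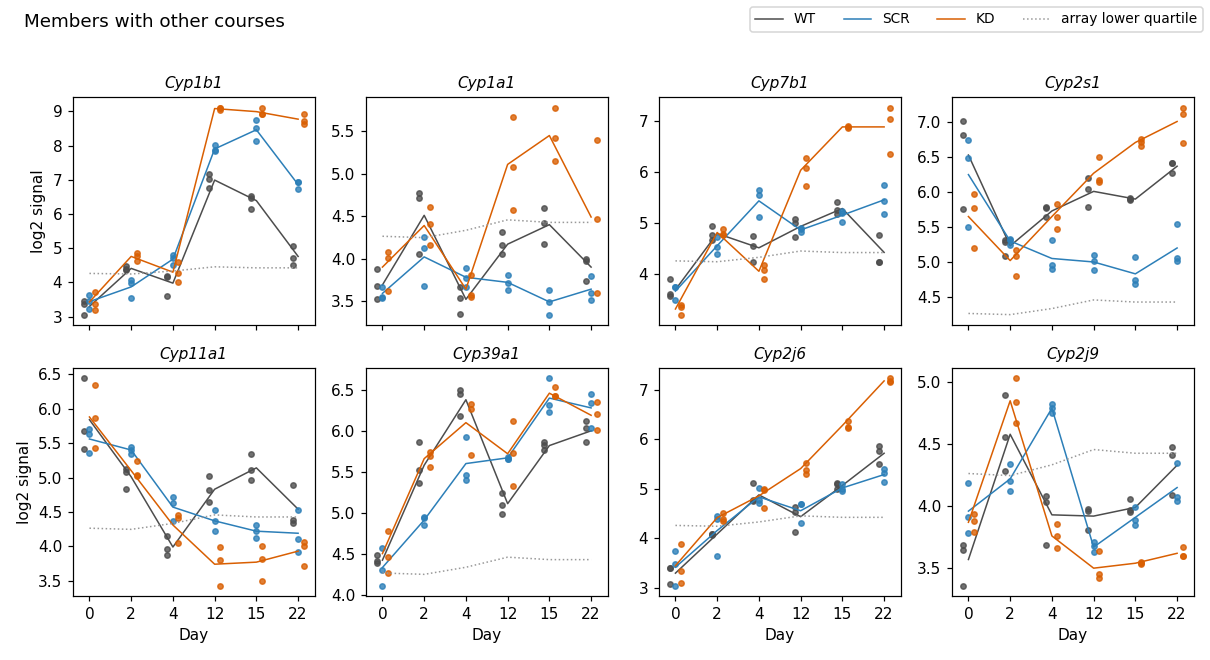
Log2 signal of 8 P450 genes on each array by day (points, days evenly spaced) with group means (lines) in WT, SCR and KD cells; the dotted line is the lower quartile of the arrays. Cyp7b1 is lower in KD than in SCR at day 4 and higher from day 12, Cyp1b1 stands in the order WT, SCR, KD at days 12, 15 and 22, and the Cyp39a1 arrays of the 3 lines overlap at day 22.

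The lines were also followed along differentiation. From day 0 to day 22, 23 members rose and 1 (Cyp11a1) fell in KD cells, where 24.7% of all genes rose and 11.4% fell. In SCR cells 5 rose (Cyp1b1, Cyp20a1, Cyp2j6, Cyp39a1 and Cyp7b1) and 2 fell (Cyp11a1 and Cyp2s1), beside 17.3% and 5.59% of all genes. In WT cells 5 rose (Cyp1b1, Cyp2j6, Cyp39a1, Cyp3a11 and Cyp3a13) and 1 fell (Cyp11a1), beside 11.6% and 4.17%. The rise of Cyp1b1 was 5.34 log2 in KD, 3.42 in SCR and 1.46 in WT cells, and that of Cyp2j6 was 3.73, 1.86 and 2.42. Between days 12 and 22, 18 members rose in KD EBs and 0 fell (9.65% and 1.99% of all genes; 2 fell at an unadjusted p under 0.05 in limma). In SCR EBs limma called 0 rises (7 at an unadjusted p under 0.05) and 1 fall, of Cyp1b1, beside 5.3% and 1.62% of all genes. In WT EBs Cyp2j6, Cyp3a11 and Cyp3a13 rose and Cyp1b1 fell, which is 3 and 1 beside 1.74% and 3.56%.

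The difference between these late courses was tested directly. The change from day 12 to day 22 was larger in KD than in SCR EBs for 18 members and smaller for 0 (1 at an unadjusted p under 0.05 in limma), beside 7.07% and 2.33% of all genes. The largest were Cyp3a11 with 7.36 log2 (SE 0.506, adjusted p = 3.17e-15), Cyp2c65 with 5.61 (SE 0.264, adjusted p = 1.63e-20) and Cyp3a25 with 5.05 (SE 0.223, adjusted p = 2.67e-21). Cyp2c68, Cyp1b1, Cyp2s1 and Cyp7b1, which were already higher at day 12, were not among the 18, whereas Cyp2d10, also higher at day 12, was (2.12 log2). For Cyp2c68 the KD and SCR means were 6.12 and 3.94 at day 12 and 7.26 and 3.83 at day 22. With a standard deviation of 1.64 log2 in 12-day KD EBs, its missing call does not show that the difference had stopped growing.

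Comparisons with WT share the KD or the SCR arrays with those above, so the values stand side by side. Over days 12 to 22, 15 members were higher in KD than in WT EBs and 1 (Cyp11a1) was lower, beside 11.2% and 6.2% of all genes, with a median of 0.46 log2 over the 43. The differences were 3.61 log2 for Cyp2f2, 2.96 for Cyp3a11, 2.90 for Cyp1b1, 2.37 for Cyp2c68, 1.72 for Cyp7b1 and 1.56 for Cyp2c65. Between SCR and WT EBs 1 member was higher (Cyp1b1) and 3 were lower (Cyp2s1, Cyp3a11 and Cyp3a13), beside 3.47% and 2.42%, with a median of -0.17 log2. Cyp3a11 was lower in SCR than in WT by -1.95 log2 (SE 0.207, adjusted p = 1.27e-10) and Cyp3a13 by -1.06 (SE 0.118, adjusted p = 4.63e-10). For Cyp3a11 the KD to SCR distance over these days, 4.91 log2 (SE 0.207), therefore held a part that lay between the 2 control lines, whereas for Cyp2f2 the differences from SCR and from WT were 3.83 and 3.61.

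Markers of liver and gut epithelium, where many P450s are made, were also higher in KD EBs. Over days 12 to 22, 10.1% of all genes were called higher in KD than in SCR EBs and 4.88% lower, beside which the marker counts stand. Of 15 hepatocyte markers measured (16 listed), 14 were higher in KD than in SCR EBs over days 12 to 22, with a median of 5.36 log2, and at day 22 all 15 were above the lower quartile in KD, 13 in WT and 5 in SCR EBs. Their summed signal per array was 54837 to 62319 in KD, 857 to 2099 in SCR and 7750 to 15712 in WT EBs at day 22. Of 10 intestinal epithelial markers measured (12 listed) 9 were higher in KD, with a median of 2.75 log2, and 9, 7 and 3 were above the lower quartile in KD, WT and SCR EBs at day 22. Their sums were 18374 to 20191 in KD, 208 to 223 in SCR and 436 to 778 in WT. In KD EBs the hepatocyte sums were already 51835 to 53268 at day 15. The intestinal sums lay between 9018 and 9840 at day 15, before the day 22 values given above. The sums of the 43 members went from between 2831 and 2992 at day 15 to 6412, 8100 and 4996 at day 22. Cyp3a11 alone made up 34.7% of the mean member sum in 22-day KD EBs. At day 12 the KD sums of the hepatocyte list were 44579, 13935 and 36143, with replicate 2 lowest, as it was for Cyp3a11, Cyp3a13, Cyp2c68, Cyp2c70 and Cyp2d10. At day 22 the WT sums of that list were 7750, 15712 and 12736, with replicate 1 lowest, as for Cyp3a11. The part of these cell types in the P450 differences was not tested.

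Markers of other cell types were read in the same way. All 8 mesenchyme markers measured were higher in KD than in SCR EBs over days 12 to 22 (median 2.73 log2), with sums of 27498 to 30918 in KD, 3694 to 4272 in SCR and 2624 to 2961 in WT EBs at day 22. Of 9 ESC markers 8 were lower (median -2.46), at sums of 14105 to 14379 in KD, 26315 to 30897 in SCR and 28743 to 28960 in WT EBs. Of the visceral endoderm markers 4 of 8 were higher and 2 lower, and of the trophoblast markers 3 of 7 were higher and 2 lower. Visceral endoderm sums at day 22 were 4119 to 4643 in KD, 1279 to 1432 in SCR and 4301 to 5377 in WT EBs, so KD and WT overlapped. Trophoblast sums were 342 to 4597 in KD, 547 to 720 in SCR and 887 to 1010 in WT EBs. For steroidogenic cells, limma called 0 of 3 markers in either direction. The part of these lists in the P450 differences was not tested either.

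**Figure D5:**
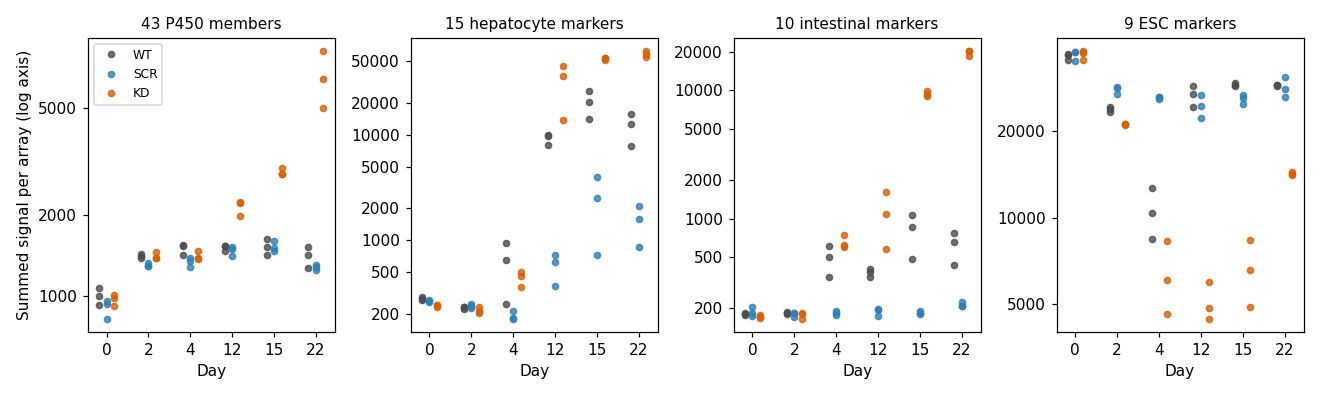
Summed signal per array (log axis, RMA values taken back from log2) of the 43 P450 genes, 15 hepatocyte, 10 intestinal and 9 ESC markers by day in WT, SCR and KD cells. Points are arrays. At day 22 the KD sums of the hepatocyte and intestinal lists lie above all WT and SCR arrays, and the ESC sums lie below them.

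The genes that serve and regulate P450s were read as lists. Of 6 electron donors measured (10 listed), limma called 0 between KD and SCR over days 12 to 22 (4 higher and 1 lower at an unadjusted p under 0.05), with a median of 0.24 log2; Cyb5a, the microsomal cytochrome b5, differed by 0.76 and was called at day 22 alone (1.27 log2, adjusted p = 1.57e-12). Of 7 heme synthesis genes measured (9 listed) limma called 0 (5 higher and 1 lower at an unadjusted p under 0.05), with Alad and Fech, which act early and last in the pathway, at 0.59 and 0.63 log2. Of 18 regulators measured (22 listed) 6 were higher and 0 lower, beside 10.1% and 4.88% of all genes, with a median of 0.40 log2. Among these lists the regulators alone held calls over the late days.

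Hnf4a, the nuclear receptor of liver and gut epithelium, was 8.15, 6.58 and 7.58 in 12-day and 7.90, 7.86 and 7.76 in 22-day KD EBs, against 5.15, 5.07 and 5.02 in SCR and 6.47, 6.80 and 6.79 in WT EBs at day 22 (KD to SCR over days 12 to 22 2.86 log2, SE 0.130, adjusted p = 1.98e-22). Foxa3, a forkhead factor of the liver, was 7.16, 7.11 and 7.19 in KD, 4.77, 4.27 and 4.74 in SCR and 6.50, 6.39 and 6.39 in WT EBs at day 22, with a late difference of 2.59 log2 (SE 0.130, adjusted p = 6.16e-21). For both genes the WT arrays lay between those of KD and SCR without overlap. Foxa1, a forkhead factor of endoderm, was 8.49, 8.56 and 8.49 in KD and 6.30, 7.12 and 6.87 in SCR (late difference 2.26 log2), and Cebpb, a factor of the acute phase response, was 9.44, 9.49 and 9.62 in KD and 7.98, 7.53 and 7.65 in SCR EBs at day 22 (late difference 1.61). Cebpa (1.45 log2) and Onecut1 (1.26) completed the 6. The receptors that sense foreign compounds were not called over the late days: Ahr, the receptor behind Cyp1 induction, differed by 0.95 log2, with -2.08 in 4-day and 1.63 in 22-day EBs, and Nr1i2, the pregnane X receptor that drives Cyp3a11, by 0.19.

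P450s outside the naming rule were few. Of 8 listed genes 4 were measured, and limma called 0 of them between KD and SCR over days 12 to 22 (2 higher and 1 lower at an unadjusted p under 0.05). Cyp51, which removes a methyl group from lanosterol in cholesterol synthesis, was higher in 4-day KD EBs by 1.12 log2 (SE 0.123, adjusted p = 4.51e-10). Cyp4a12a, a fatty acid hydroxylase of male kidney and liver, was higher in 22-day KD EBs by 1.14 log2 (SE 0.107, adjusted p = 4.98e-12). Probe sets that carry more than 1 P450 symbol were left out of the counts. The one for Cyp2a5 and Cyp2a4 differed by 2.84 log2 between KD and SCR at day 22 and the one for Cyp3a41a and Cyp3a41b by 1.63.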

How the data were processed

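The deposited table holds log2 signals of 30939 probe sets on 54 Affymetrix Mouse 430 2.0 arrays, which the authors made from labelled total RNA. The submitters' processing notes name RMA, Affymetrix Expression Console and Partek 6.6, while the methods of the paper speak of Bioconductor packages in R. The values were used as deposited. Array medians lay between 5.94 and 6.26, and only the number of arrays can be given for precision, since arrays have no read depth. Probe sets had 1 symbol (25596), several (685) or none (4658) in the platform annotation, and only those with 1 were named.

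In R 4.3.3, limma 3.58.1 fitted 18 group means over all 54 arrays with moderated variances (eBayes), and p-values were adjusted over all probe sets of a contrast. Errors of differences are moderated standard errors. Intervals are 95%. The members, classes and lists were chosen with earlier results of these data known. Values of every array are given for up to 4 members of a class with the largest called late KD to SCR difference, the largest falls, the 3 brightest in ESCs, and the up to 3 largest differences in the SCR to WT and in the day 12 to day 22 comparisons, and up to 4 genes of each other list. Further members with array values were chosen after their values were seen. Arrays of the same number were not treated as pairs: 12 of 18 KD and SCR pairs deviated together with r over 0.1 (range -0.149 to 0.315).

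On data simulated from the day 22 KD and SCR comparison, 2 of 50 probe sets with a true change of 0.7 log2 were called. At 1.5 log2 49 of 50 were called, and 50 of 50 at 2.5 and at 4. Of 30739 unchanged probe sets 0 were called. The simulated noise was normal, independent between arrays and equally wide in every group. These counts therefore do not cover groups of uneven spread or arrays that are not independent. Alternatives covered normalization, a brightness filter, probe set choice, arrays in the fit, variance model, array weights, the 2-fold rule, a replicate block and leaving out arrays. Promoters came from RefSeq (GRCm38.p6), which was matched to members by symbol. Protein sequences were not used here.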

Additional observations from a re-analysis of the deposited data

Results flagged for a closer look

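The KD to SCR difference of 18 members was larger at day 22 than at day 12 by a test of the change between these days (limma, adjusted p under 0.05 and at least 2-fold). The difference grew by 7.36 log2 for Cyp3a11, 5.61 for Cyp2c65, 5.05 for Cyp3a25, 4.79 for Cyp2f2, 3.80 for Cyp3a13, 3.62 for Cyp2d26, 3.55 for Cyp2c55, 3.24 for Cyp2c70 and 2.99 for Cyp2j5. It grew by 2.26 log2 for Cyp3a16, 2.18 for Cyp2c29, 2.12 for Cyp2d10, 2.11 for Cyp2d9, 1.98 for Cyp2a12, 1.48 for Cyp4a31, 1.24 for Cyp1a2, 1.21 for Cyp2e1 and 1.05 for Cyp2j6. Groups of 3 arrays were not tested for outlying arrays.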

How the results depend on the processing

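Of 1977 values of 82 results for single members under the alternatives, 1942 kept their direction and their side of the threshold, 35 kept the direction but missed the threshold, and 0 reversed. Calls of single members at day 12 alone or day 15 alone were not among these results. The replicate block left the counts as they were, at 19 members higher in KD than SCR over days 12 to 22, 22 at day 22, 16 at day 15 and 6 at day 12. Restricting the fit to the brightest 60% of probe sets left 6 of the 43 members (Cyp1b1, Cyp20a1, Cyp21a1, Cyp2s1, Cyp39a1 and Cyp4f16), so the counts shrank with the members tested: higher in KD than SCR were 2 over days 12 to 22, 2 at day 12, 1 at day 15 and 2 at day 22, lower at day 4 were 0, higher in KD than WT was 1, and lower in SCR than WT was 1. Rises from day 0 to day 22 were then 4 in KD, 3 in SCR and 2 in WT, rises from day 12 to day 22 in KD were 0, and members with a larger late change in KD than SCR were 0.

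Without 1 array or 1 replicate number the KD to SCR counts ranged from 17 to 19 over days 12 to 22, 5 to 9 at day 12, 15 to 16 at day 15, 21 to 23 at day 22 and 2 to 3 (lower) at day 4. Calls that ended were as follows. Cyp2a12 over days 12 to 22 was 0.94 log2 without 22-day KD replicate 2, 0.99 without replicate 2 of every group and 0.99 with median centring. Cyp2d9 was 0.94 without that array, 0.90 without replicate 2 of every group, 0.99 with quantile normalization and 0.97 with median centring. Cyp2j9 at day 4 was -0.98 without KD replicate 2, -1.0 without replicate 2 of every group and -0.99 with quantile normalization, and Cyp2j13 was -0.80 without SCR replicate 3, -0.85 without replicate 3 of every group and -0.96 without KD replicate 1. Cyp3a13 between SCR and WT was -0.99 without 15-day WT replicate 2 and -0.90 without replicate 2 of every group, and Cyp2s1 was -1.0 without replicate 3 of every group. Cyp2c55 between KD and WT was 0.95 without replicate 1 of every group, and Cyp1a2 between KD and SCR at day 22 was 1.00 without replicate 2 of every group. Cyp11a1 between KD and WT was -0.97 with array weights, -0.83 without replicate 1 of every group, and -0.99 to -0.96 without replicate 1 of 12-day or 22-day WT or of 12-day, 15-day or 22-day KD EBs, or replicate 3 of 15-day WT EBs. The late growth of the Cyp1a2 difference was 0.92 without 22-day KD replicate 2 and 0.95 without replicate 2 of every group. It also missed the threshold when only the compared arrays were fitted (1.24, adjusted p = 0.0518) and in a test against 0.5 log2 (adjusted p = 0.0631). That of Cyp2j6 missed it in the test against 0.5 log2 (1.05, adjusted p = 0.198) and was 0.99 without replicate 1 of every group and 0.98 to 0.99 without SCR replicate 1 of day 12 or 22 or replicate 3 of day 12. Dim signals below the lower quartile limit the size of differences.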
